A study of Mus musculus with 4 samples.

Results

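The subject is 41 mouse genes of the lysosome and of autophagy: cathepsins, other lysosomal hydrolases, lysosomal membrane proteins, the transcription factors TFEB and TFE3, and components of the autophagy machinery. They were chosen by gene name, in a rule that used no measured value, but with earlier results of these data known. All 41 were found among the 22369 genes of the deposited expression table. RNA sequencing had been done on day 9 of reprogramming in OG2MEF cells, mouse embryonic fibroblasts that carry a green fluorescent reporter driven by Oct4. The libraries were labelled SOX17-V118M in 2 cases (V118M below), a form of the endodermal transcription factor SOX17 with a missense change, and wild-type SOX17 in 2 cases (WT below). The protocol describes delivery by pMX retroviruses of Sox2 and Klf4 along with OCT4, SOX17, SOX17-V118M or GFP, then a medium for mouse embryonic stem cells that contained LIF and vitamin C, and it does not assign a combination to each library. All 4 libraries thus share the OG2MEF background, the day and the medium. Whether replicates came from separate cultures is not stated in the labels, so the spread between these libraries may be technical. The p-values and intervals reflect this spread as moderated by variance shared over genes, and not each gene's own spread alone.

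The lysosome is the acidic compartment in which proteins, glycans and lipids are degraded. Autophagy delivers cytoplasm and organelles to it inside double-membraned autophagosomes, whose formation needs the ULK1 kinase complex, a lipid kinase complex containing Beclin 1, and the conjugation of LC3 and GABARAP proteins to lipid. TFEB and TFE3 are basic helix-loop-helix factors that bind E-box-type CLEAR elements near the start sites of many lysosomal and autophagy genes, and mTORC1 on the lysosomal surface keeps them in the cytoplasm when nutrients are plentiful.

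To show which members carry such letters near their start, RefSeq promoter windows of GRCm38.p6 (250 bases before to 50 after the start) were searched on both strands. For each gene the window nearest to the start given in the table was used where the starts lay within 250 bases of each other, which held for 32 of the 41 members. The palindrome CACGTG was found in 9 of these 32 windows, or 28.1%, against 9.55% of the 11094 such windows of tested genes. The longer form TCACGTGA, which contains CACGTG, was found in 3 members (9.38%, against 1.72% of these windows), and TCACGTGA with a G before and a C after it, the full CLEAR palindrome, in 0 members (0.64% of these windows). A window was available for 35 members, and none for Ctsb, Ctsh, Asah1, Npc1, Map1lc3a and Becn1, which were not searched. Windows with starts farther from the table's were left out. Among the members these were Ctsl, at 370 bases, and Atg7, at 27999 bases, which held CACGTG, and Cd63, at 8356 bases, which did not. The stretches below show every match in the 9 members. Capitals mark CACGTG or TCACGTGA.
Ctsd, chr7:142387899-142387946, minus strand: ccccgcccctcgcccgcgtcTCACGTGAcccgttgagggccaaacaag
Ctsd, chr7:142388047-142388077, minus strand: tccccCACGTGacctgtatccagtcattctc
Ctsf, chr19:4855066-4855111, plus strand: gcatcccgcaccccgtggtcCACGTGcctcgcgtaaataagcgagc
Gaa, chr11:119267803-119267848, plus strand: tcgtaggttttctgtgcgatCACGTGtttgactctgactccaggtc
Gla, chrX:134601173-134601253, minus strand: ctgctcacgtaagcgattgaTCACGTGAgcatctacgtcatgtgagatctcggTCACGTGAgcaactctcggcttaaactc
Glb1, chr9:114401010-114401055, plus strand: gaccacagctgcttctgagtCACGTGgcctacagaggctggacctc
Naglu, chr11:101070001-101070046, plus strand: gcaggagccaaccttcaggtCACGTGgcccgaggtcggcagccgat
Lamp1, chr8:13159080-13159171, plus strand: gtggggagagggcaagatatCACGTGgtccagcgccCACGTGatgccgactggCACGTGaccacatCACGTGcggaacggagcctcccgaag
Mcoln1, chr8:3500428-3500500, plus strand: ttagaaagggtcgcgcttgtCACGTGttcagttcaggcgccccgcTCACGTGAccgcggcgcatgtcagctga
Atg5, chr10:44268305-44268350, plus strand: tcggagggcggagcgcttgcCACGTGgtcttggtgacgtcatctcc
The Lamp1 window held 4 matches, the first 61 and the last 15 bases before the start, and the Ctsd, Gla and Mcoln1 windows held 2 each. A match of letters is a description of the sequence and no evidence of binding.

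The table gives quantile-normalized whole numbers, called values below, and not read counts. For 7 members at least 2 libraries share a value, because all libraries are placed on nearly the same set of values. Library sums lay between 12855482 and 12859613 and each library's median was 76, so depth is unknown. Sox17 was at 3016 and 2396 in the V118M libraries and at 3484 and 2880 in the WT libraries, and the table cannot show the mutation. Of the other factors named in the protocol, Pou5f1, the gene of OCT4, was at 61186, the highest value of the table, in all 4 libraries. Klf4 was at 29444 and 17589 in V118M and at 29444 in each WT library. Sox2 was at 4 and 2 in V118M and at 2 in each WT library, so no library showed a high Sox2 value. V118M replicate 2 stood apart, with a Pearson correlation of 0.954 to 0.964 with the other libraries across 12661 genes, against 0.986 to 0.99 among those. Summed values of 15 fibroblast markers were 191893 and 156460 in V118M and 190318 and 190627 in WT, and none was at 0, so the fibroblast label was met. Of the 15, 7 were higher and 6 lower in V118M, with a median log2 fold change of 0. In V118M replicate 2, Col3a1 was at 29496, against 61186 in each other library. Dcn was highest there, at 17630, against 9022 to 11822 in the others. The 8 pluripotency markers summed to 240 and 221 in V118M and 104 and 162 in WT. Most of each sum was Tdgf1, at 188 and 149 in V118M and 83 and 126 in WT. Of the 8, 2 were at 0 in each V118M library and 2 and 3 in WT replicates 1 and 2. Nanog overlapped between the groups, at 6 in each V118M library and 1 and 8 in WT.

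No member passed the test between the groups. In V118M against WT, 0 of 41 had an adjusted p under 0.05 (limma with Benjamini-Hochberg adjustment, lowest adjusted p = 0.951), where 0% of all 19547 genes tested passed, and 0 of 41 had an unadjusted p under 0.05, where 4.01% of all genes did. Fold changes were small: the median over the members was -0.08 on the log2(value + 1) scale, against 0 over all genes tested, with 28 members lower and 13 higher in V118M. The largest was -0.50 (Npc1). The 95% intervals reached between 0.348 and 0.696 to each side of the estimate, with a median of 0.451, so changes of that size cannot be told from none with 2 libraries a group. The values were lower in both V118M libraries than in either WT library for 12 members (29.3%), where 14.8% of all genes tested lay that way, and higher for 1 member (2.44%, against 13.2% of all genes). Among genes with a mean value of at least 75, which every member exceeded, these shares were 16.5% lower and 14.1% higher. The member counts moved with the libraries used. Without V118M replicate 2, 27 members were lower and 3 higher without overlap, against 33.4% and 28.2% of all genes. Without V118M replicate 1, 20 were lower and 17 higher, against 38.6% and 43%. Without WT replicate 1, 21 were lower and 1 higher (23.8% and 21.5% of all genes), and without WT replicate 2, 12 and 6 (26.4% and 25.7%).

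**Figure D1:**
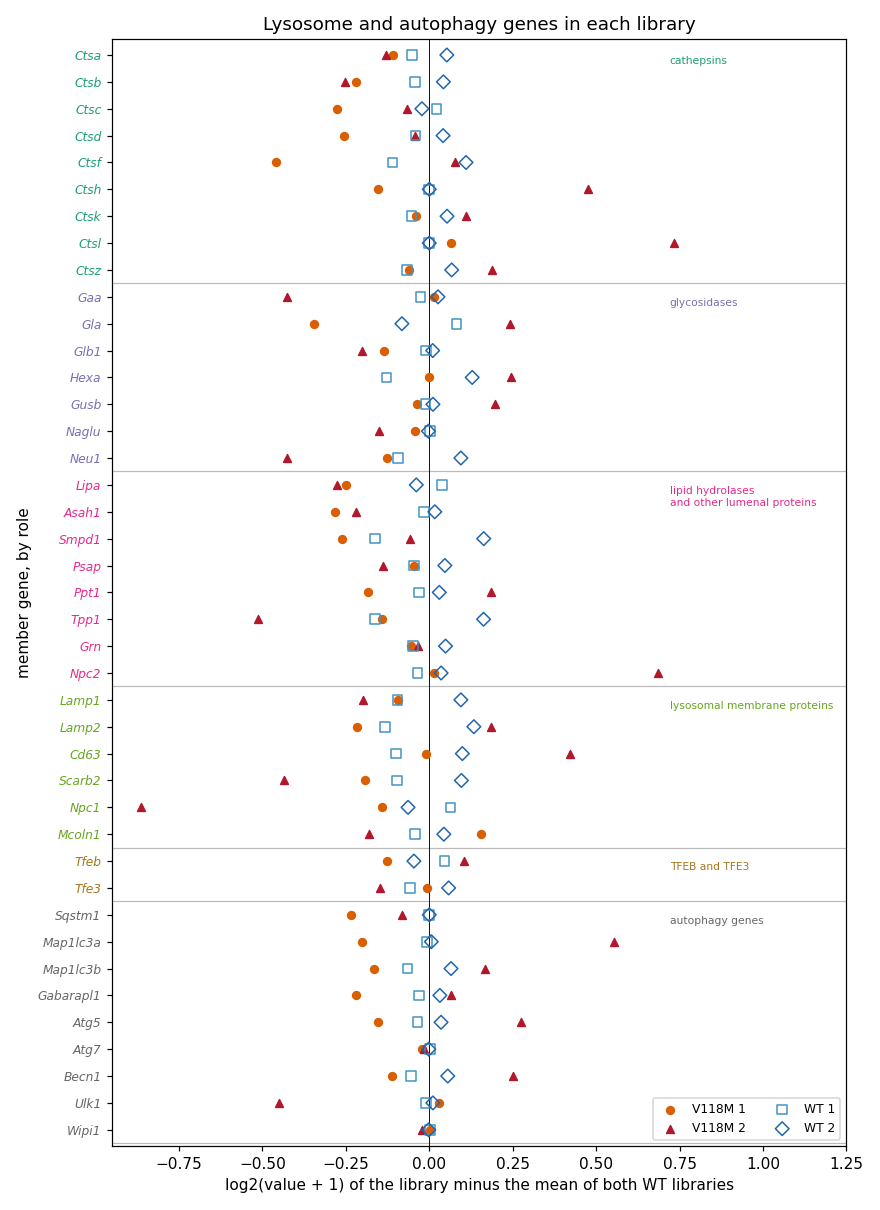
Each row is a member, grouped by role, and each point a library: filled circles and triangles are V118M replicates 1 and 2, open squares and diamonds WT replicates 1 and 2. The x axis is log2(value + 1) minus the mean of both WT libraries, and points at the same value overlap. V118M replicate 1 lies below both WT libraries in 27 of 41 rows, while V118M replicate 2 spreads to both sides.

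**Figure D2:**
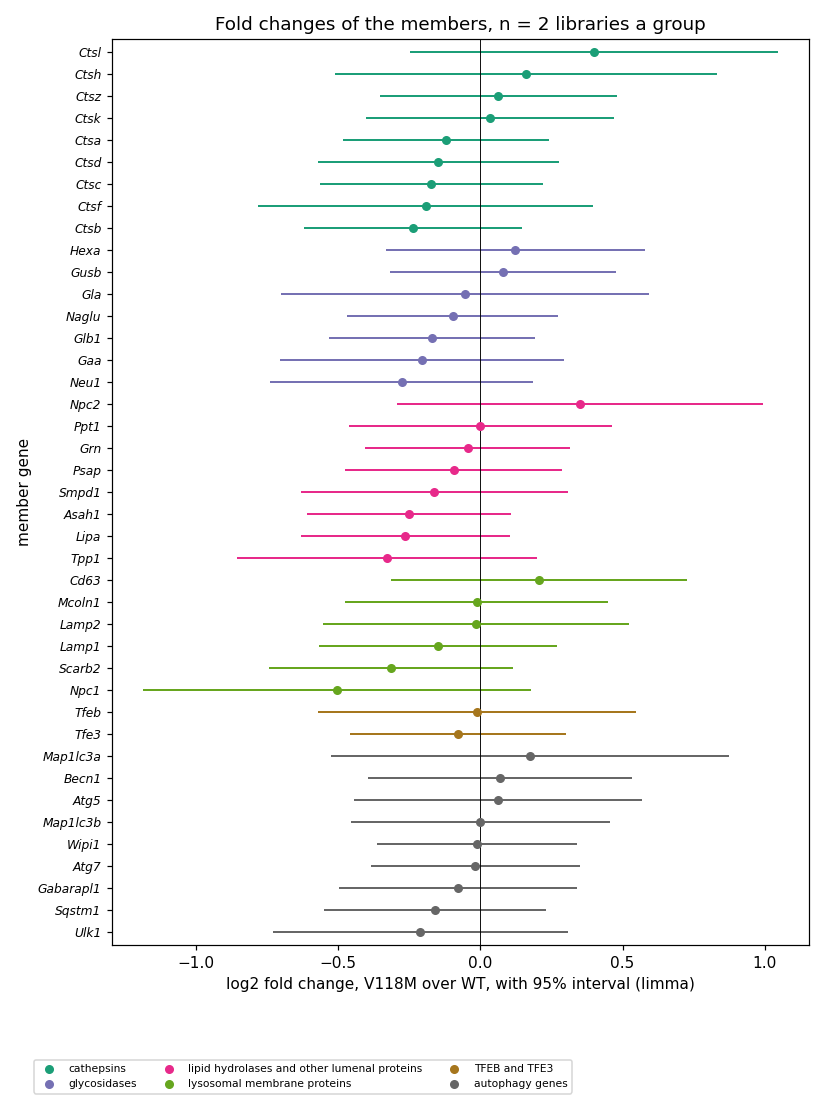
Points are log2 fold changes of V118M over WT (x axis) for each member (y axis), coloured by role, with 95% intervals from limma, n = 2 libraries a group. Every interval includes 0.

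Cathepsins are the main lysosomal proteases. Of the 9 listed, 5 were lower and 4 higher in V118M, with a median log2 fold change of -0.12. Ctsb, a cysteine protease (ENSMUSG00000021939, chromosome 14, 63122462 to 63145923 of GRCm38, as for all gene positions here), was at 6496 and 6342 in V118M and at 7342 and 7786 in WT, a log2 fold change of -0.24 with a standard error of 0.15 (adjusted p = 0.951, limma). Both V118M values lay below both WT values. The same order held for Ctsa, the protective protein for beta-galactosidase and neuraminidase, at 2044 and 2015 in V118M and 2127 and 2288 in WT. It also held for Ctsc, which activates granule serine proteases, at 782 and 904 in V118M and 962 and 933 in WT. The aspartic protease Ctsd was at 7768 and 9003 in V118M and 9003 and 9534 in WT, so a value was shared between the groups. Ctsl, a cysteine protease with roles in many tissues (chromosome 13, 64359337 to 64370890), was the member of this set with the largest fold change. It was at 5077 and 8066 in V118M and at 4852 in each WT library, a log2 fold change of 0.40 with a standard error of 0.25 (adjusted p = 0.951, limma). It was the only one of the 41 whose V118M values both lay above the WT values, and most of its difference came from V118M replicate 2, where it was 0.73 above the WT mean, against 0.06 in replicate 1. Ctsh, an aminopeptidase, was at 133 and 206 in V118M and 148 in each WT library, with the V118M values on either side of WT. Ctsf was at 370 and 538 in V118M and 472 and 550 in WT. Ctsk, the collagen-degrading protease of osteoclasts, was at 236 and 262 in V118M and 234 and 252 in WT, and Ctsz at 1772 and 2104 in V118M and 1764 and 1936 in WT, both within or just above the WT range.

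The glycosidases remove sugars from glycans and glycolipids, and loss of each causes a storage disease in humans. Of 7 listed, 5 were lower and 2 higher in V118M, with a median log2 fold change of -0.10. Neu1, the lysosomal sialidase (chromosome 17, 34931253 to 34935953), was at 480 and 390 in V118M and 491 and 560 in WT, a log2 fold change of -0.28 with a standard error of 0.18 (adjusted p = 0.951, limma). The groups did not overlap in Neu1, nor in the beta-galactosidase gene Glb1, at 641 and 613 in V118M and 700 and 710 in WT. Naglu, which acts on heparan sulphate, was at 533 and 494 in V118M and 550 and 548 in WT. These 3 were the glycosidases with lower values in both V118M libraries (3 of 7, 42.9%, against 14.8% of all genes tested). The acid alpha-glucosidase gene Gaa was at 1620 and 1193 in V118M and 1574 and 1632 in WT, low in V118M replicate 2 alone. Gla, the alpha-galactosidase whose window held 2 TCACGTGA, was at 158 and 238 in V118M and 213 and 190 in WT. Its V118M values lay on either side of both WT values. Hexa was at 666 and 790 in V118M and 609 and 728 in WT, and Gusb at 957 and 1124 in V118M and 974 and 989 in WT.

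The lipid hydrolases and other lumenal proteins gave a median log2 fold change of -0.13 over 8 genes, 6 lower and 2 higher. Asah1, the acid ceramidase (chromosome 8, 41340197 to 41374773), was at 1999 and 2090 in V118M and 2404 and 2460 in WT, a log2 fold change of -0.25 with a standard error of 0.14 (adjusted p = 0.951, limma). Lipa, the acid lipase that hydrolyses cholesteryl esters and triglycerides, was at 498 and 488 in V118M and 608 and 576 in WT. In both genes the V118M libraries lay close together and below both WT libraries, and the difference was similar in each V118M library: -0.28 and -0.22 for Asah1 and -0.25 and -0.28 for Lipa in replicates 1 and 2 against the WT mean. Tpp1, a tripeptidyl peptidase, was at 2181 and 1687 in V118M and 2150 and 2694 in WT. Npc2, the soluble protein that hands cholesterol to NPC1, was at 2488 and 3961 in V118M and 2402 and 2523 in WT, a log2 fold change of 0.35 with a standard error of 0.25 (adjusted p = 0.951, limma). Its excess was in V118M replicate 2 alone, since replicate 1 lay between the WT values. Smpd1, the acid sphingomyelinase, was at 698 and 804 in V118M and 748 and 938 in WT. Psap, the precursor of the saposins, was at 4988 and 4678 in V118M and 4988 and 5322 in WT. The progranulin gene Grn was at 2107 and 2141 in V118M and 2118 and 2266 in WT, and the palmitoyl thioesterase gene Ppt1 at 698 and 900 in V118M and 776 and 809 in WT, so the groups overlapped in all 3 of Psap, Grn and Ppt1.

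Among the 6 lysosomal membrane proteins, 5 were lower and 1 higher in V118M, with a median log2 fold change of -0.08. Npc1, the transporter that exports cholesterol from the lysosome (chromosome 18, 12189692 to 12236400), was at 718 and 435 in V118M and 828 and 758 in WT, a log2 fold change of -0.50 with a standard error of 0.27 (adjusted p = 0.951, limma). Both V118M values were below the WT values, by 0.14 in replicate 1 and 0.86 in replicate 2 against the WT mean. Scarb2, the LIMP2 receptor that carries glucocerebrosidase to the lysosome (chromosome 5, 92441314 to 92506833), was at 1250 and 1057 in V118M and 1337 and 1528 in WT, with the smallest unadjusted p of the 41 (0.116, limma). The main structural glycoproteins did not separate the groups. Lamp1, whose window held 4 CACGTG, was at 8374 and 7786 in V118M and 8374 and 9550 in WT (log2 fold change -0.15, interval -0.56 to 0.27). Lamp2, which is also the receptor of chaperone-mediated autophagy, was at 6321 and 8350 in V118M and 6690 and 8052 in WT (log2 fold change -0.01, interval -0.55 to 0.52). The tetraspanin gene Cd63 was at 2772 and 3740 in V118M and 2607 and 2991 in WT. The calcium channel gene Mcoln1 was at 478 and 378 in V118M and 416 and 442 in WT, with the V118M values on either side of the WT values.

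Values of TFEB and TFE3 transcripts overlapped between the groups. Tfeb (chromosome 17, 47737030 to 47792419) was at 85 and 100 in V118M and 96 and 90 in WT, with a log2 fold change of -0.01 and an interval of -0.57 to 0.54. Tfe3 (chromosome X, 7762560 to 7775202) was at 1397 and 1266 in V118M and 1348 and 1461 in WT, with a log2 fold change of -0.08 and an interval of -0.45 to 0.30. Per kilobase of transcript, Tfeb stood at 40.4 and Tfe3 at 417.5 on average over the 4 libraries, and the highest library of Tfeb (43.5) was below the lowest of Tfe3 (386.3). Undivided values of Tfeb were also below those of Tfe3 in every library. The members with TCACGTGA had a median log2 fold change of -0.05 (3 genes), against -0.09 for the other 29 whose window was searched. For CACGTG the medians were -0.15 with it (9 genes) and -0.08 without it (23 genes). Lower values in both V118M libraries were seen in 2 of the 9 with it and 6 of the 23 without it, where 14.8% of all genes tested lay that way.

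Of the 9 autophagy genes 5 were lower and 4 higher in V118M, and their median log2 fold change was -0.01. Sqstm1, which encodes the cargo receptor p62 (chromosome 11, 50199366 to 50210827), was at 5217 and 5804 in V118M and 6142 in each WT library. Both V118M values lay below the WT value, by a log2 fold change of -0.16 ± 0.15 (standard error; adjusted p = 0.951, limma). The LC3 genes were split between the V118M libraries. Map1lc3a was at 513 and 867 in V118M and 588 and 593 in WT (log2 fold change 0.18, interval -0.52 to 0.87). Map1lc3b was at 2624 and 3306 in V118M and 2814 and 3080 in WT (log2 fold change 0.0007, interval -0.45 to 0.45). Gabarapl1, of the sister family, was at 1115 and 1356 in V118M and 1269 and 1326 in WT (log2 fold change -0.08, interval -0.49 to 0.34). In all 3 the V118M replicate 1 value was the lowest and the V118M replicate 2 value the highest of the 4.

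The same order, V118M replicate 1 lowest and V118M replicate 2 highest, held in Atg5 and Becn1, which act in LC3 conjugation and in the lipid kinase complex. Atg5 was at 386 and 520 in V118M and 419 and 440 in WT, and Becn1, the Beclin 1 gene, at 1228 and 1580 in V118M and 1278 and 1380 in WT. Ulk1, the initiating kinase (chromosome 5, 110784488 to 110810097), had the reverse order at 1651 and 1182 in V118M and 1605 and 1629 in WT, and the largest fold change of the set (-0.21 ± 0.20, standard error; adjusted p = 0.951, limma). Atg7, the E1-like enzyme of both conjugation systems, was at 444 and 446 in V118M and 451 and 450 in WT. Its V118M values were below the WT values, so it counts among the 12, but by 0.02 on the log2 scale. Wipi1, which binds phosphoinositides at the forming autophagosome, was at 1255 and 1234 in V118M and 1255 and 1252 in WT.

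The V118M libraries differed from each other more than the WT libraries did. The median absolute difference over the members was 0.25 between the V118M libraries and 0.09 between the WT libraries on the log2 scale. V118M replicate 1 lay below both WT libraries in 27 of 41 members (65.9%), against 32.5% of all genes tested, and above both in 3 (7.32%, against 28.1%). V118M replicate 2 lay below both in 20 (48.8%, against 37.5%) and above both in 17 (41.5%, against 42.5%). Among genes with a mean value of at least 75, which every member exceeded, 36.5% lay below and 31.4% above both in V118M replicate 1. In V118M replicate 2 these shares were 43.9% and 44.7%. In 11 members (26.8%, against 13% of all genes) replicate 1 was below and replicate 2 above both WT libraries, and in 2 members, Mcoln1 and Ulk1, the reverse. The WT libraries were not level either: WT replicate 2 was higher than WT replicate 1 in 30 members, lower in 8 and tied in 3, while 49.2% of genes with a mean value of at least 75 were higher in WT replicate 2. Against WT replicate 1 alone, V118M replicate 1 was lower in 27 members, higher in 11 and tied in 3 (median difference -0.06), and V118M replicate 2 lower in 20, higher in 20 and tied in 1 (median 0). Against WT replicate 2 alone, V118M replicate 1 was lower in 37 and higher in 4 (median -0.16), and V118M replicate 2 lower in 24 and higher in 17 (median -0.05). Of all genes tested, 44.4% to 47.9% were lower in these 4 pairings.

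Transcript length moved with the values of V118M replicate 2. Across the 41 members, Spearman's rho between the length of the annotated principal transcript and the log2 difference of the library from the WT mean was -0.51 for V118M replicate 2 and -0.01 for V118M replicate 1. Over the 12651 genes whose log2 values averaged 5 or more it was -0.54 and 0.19. These are descriptions across genes of single libraries, and all points of a library share its preparation. The 20 members with the shorter transcripts (median 2.04 kb) had a median of 0.09 in V118M replicate 2, and 11 of them lay above both WT libraries and 5 below. The 20 with the longer transcripts (median 3.43 kb) had a median of -0.14, with 6 above and 14 below. Map1lc3a at 1.11 kb and Cd63 at 1.06 kb were among the members highest in V118M replicate 2 relative to WT, and Ulk1 at 5.21 kb and Npc1 at 5.22 kb among the lowest, while Npc2 at 3.3 kb lay 0.69 above the WT mean. With a trend on length and GC content removed from each library, the median in V118M replicates 1 and 2 was -0.12 and -0.05, and 0 members passed in limma. Unadjusted p was then under 0.05 for Lipa and Asah1, 2 of 41 members, where 5.64% of all genes had such a p. After this removal, V118M replicate 2 stood at 0.052 against the WT mean for Cd63 (0.421 before) and -0.075 for Ulk1 (-0.452 before). Map1lc3a stood at 0.264 (0.553 before), Ctsl at 0.435 (0.733 before) and Npc1 at -0.585 (-0.863 before). Npc2 stood at 0.766 (0.686 before). The fold change between the groups switched sign in 7 of 41 members. The part of length in the single values was not tested further.

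**Figure D3:**
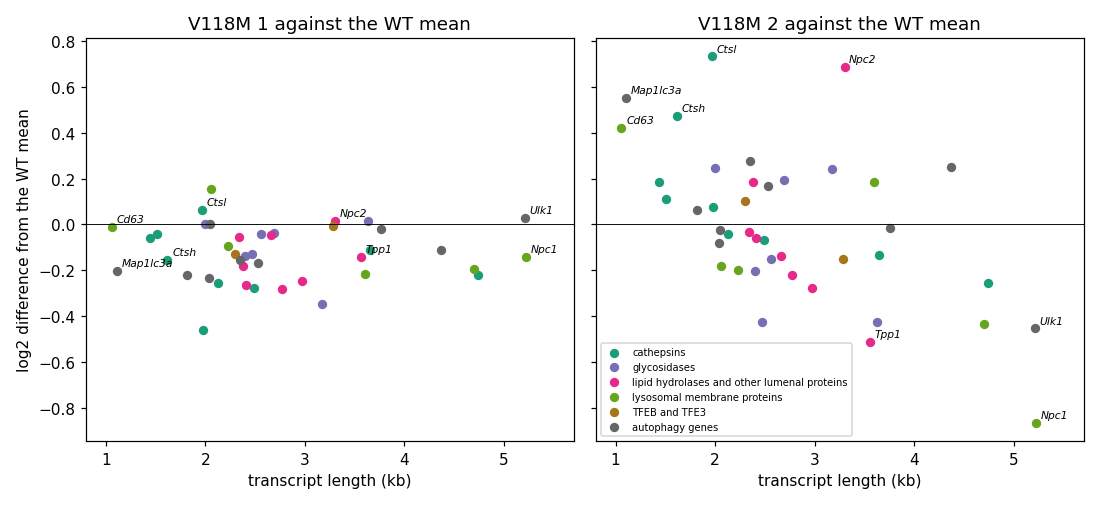
Each point is a member, coloured by role; the x axis is transcript length in kilobases and the y axis the log2 difference of 1 library from the mean of both WT libraries. In V118M replicate 2 (right) the points run from Cd63 and Map1lc3a above 0 at short lengths to Ulk1 and Npc1 below 0 at long ones (Spearman's rho -0.51, n = 41), and in V118M replicate 1 (left) they show no such slope (rho -0.01).

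Lysosomal genes are high in macrophages, so markers of leukocytes were examined beside them. Summed values of 17 macrophage and leukocyte markers were 678 and 722 in V118M and 1072 and 890 in WT, so the V118M sums lay below the WT sums. Of the 15 that passed the filter, 12 were lower and 2 higher in V118M, and in 1 (6.67%, against 14.8% of all genes tested) were both V118M values below both WT values. In V118M replicates 1 and 2, 7 and 3 of the 17 were at 0, and in WT replicates 1 and 2, 0 and 5. Ptprc, the pan-leukocyte gene and the 1 without overlap, was at 30 and 0 in V118M and 165 and 58 in WT. The macrophage gene Adgre1 was at 0 and 6 in V118M and 18 and 2 in WT. The 2 higher in V118M were Itgam, at 366 and 330 in V118M and 251 and 428 in WT, and Csf1r, at 26 and 46 in V118M and 58 and 20 in WT. Both overlapped between the groups. The lysosomal protease Ctss, which macrophages express, was at 6 and 18 in V118M and 38 and 3 in WT, against 7768 to 9534 for Ctsd. The part of these cells in the lower values of lysosomal genes was not tested, and in bulk RNA fewer cells of a type and less RNA per cell cannot be told apart. The 11 keratinocyte and epithelial markers summed to 26629 and 26307 in V118M and 22869 and 21878 in WT, but 7 of the 11 were lower and 4 higher in V118M, with a median log2 fold change of -0.06. The 4 higher were the keratin genes Krt5, Krt14, Krt15 and Krt6a, each without overlap (36.4%, against 13.2% of all genes tested). Without overlap 3 of the 11 were lower (27.3%, against 14.8%). Krt5 was at 664 and 731 in V118M and 246 and 199 in WT, and Krt14 at 5802 and 8053 in V118M and 4752 and 4358 in WT. Unadjusted p was under 0.05 (limma) for 3 of the 11, against 4.01% of all genes, and 0 passed after adjustment. Krt8, a keratin of simple epithelia, was at 6332 and 5972 in V118M and 6702 and 6490 in WT.

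Per kilobase of transcript, Ctsd and Lamp1 had the highest mean levels of the members, at 4150 and 3823 over the 4 libraries. Their ranges over libraries, 3652 to 4482 and 3493 to 4284, overlapped. Ctsl (2898), Sqstm1 (2860) and Cd63 (2848) followed at nearly equal means, then Lamp2 (2040) and Psap (1880). At the lower end stood Tfeb (40.4), Gla (63) and Ctsh (98.2), and the highest library of Tfeb (43.5) was below the lowest of Gla (49.8). The genes spanned a wider range in this order than the groups did in any single gene. Division by length assumes that the values grow with transcript length, which the sources do not state. The order depends on it: undivided, Lamp2 (6321 to 8350) and Ctsb (6342 to 7786) lay above Sqstm1 (5217 to 6142) and Cd63 (2607 to 3740) in every library.

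Other genes of the pathway, 150 in 9 lists of which 146 were in the table and 143 passed the filter on low values, gave a median log2 fold change of -0.08, with 85 lower and 58 higher in V118M. None passed in limma over all genes tested (0 of 143), and 5 had an unadjusted p under 0.05, all lower in V118M, where 4.01% of all genes had one. Values were lower in both V118M libraries for 30 (21%, against 14.8% of all genes) and higher in both for 6 (4.2%, against 13.2%).

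Among the 25 genes of nutrient sensing by mTORC1 at the lysosome, 16 were lower and 9 higher, with a median of -0.18. Flcn, folliculin, which acts on the Rag GTPases and through them on TFEB and TFE3, was at 656 and 674 in V118M and 944 and 976 in WT (log2 fold change -0.53 ± 0.14, standard error; adjusted p = 0.951, limma). Its partners Fnip1 and Fnip2 were lower in both V118M libraries as well. Fnip1 was at 1234 and 1221 in V118M and 1528 and 1612 in WT (log2 fold change -0.35), and Fnip2 at 825 and 620 in V118M and 1098 and 948 in WT (log2 fold change -0.51). These 3 genes were the only ones of the 25 with an unadjusted p under 0.05, where 4.01% of all genes tested had one. Over all lists together 5 of 143 had one. The adjusted p of Fnip1 and Fnip2 was 0.951 (limma), and both were named after their values were seen.

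Other lysosomal hydrolases were lower in 16 of 22, with a median of -0.20. In 8 of the 22 (36.4%) both V118M values were below both WT values, against 14.8% of all genes tested and 16.5% of genes with a mean value of at least 75. Idua, the iduronidase, was at 56 and 30 in V118M and 78 and 85 in WT (log2 fold change -0.97 ± 0.37, standard error; adjusted p = 0.951, limma). Of the 9 genes of mannose 6-phosphate sorting, which directs hydrolases to the lysosome, 8 were lower, with a median of -0.17. Igf2r, the large sorting receptor, was at 4924 and 2577 in V118M and 6342 and 5581 in WT, and its transcript measures 8.89 kb. The list median was -0.49 in V118M replicate 2 and -0.06 in replicate 1. With the length and GC trend removed these were -0.24 and -0.06. The vacuolar ATPase, which acidifies the lysosome, had 12 subunit genes higher and 7 lower of 19, with a median of 0.04. In 0 of the 19 did both V118M values lie on the same side of both WT values, where 14.8% of all genes tested lay lower and 13.2% higher. The median of these subunit genes was 0.33 in V118M replicate 2 and -0.13 in replicate 1. With the length and GC trend removed these medians were 0.08 and -0.10. Atp6v1d had the smallest p of this list, at 674 and 1087 in V118M and 665 and 762 in WT.

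The cathepsin inhibitors were higher in 5 of 5 tested genes, with a median of 0.60. Stfa3, a stefin, was at 62 and 72 in V118M and 48 and 40 in WT (log2 fold change 0.60 ± 0.27, standard error; adjusted p = 0.951, limma), and stefin genes are near-identical copies between which reads could be split. The median of the list was 0.70 in V118M replicate 2 and 0.24 in replicate 1. With the length and GC trend removed these were 0.22 and 0.21. Of 39 other autophagy genes 24 were lower and 15 higher, with a median of -0.07. Optn, the receptor optineurin, was at 372 and 324 in V118M and 460 and 494 in WT (log2 fold change -0.46 ± 0.16, standard error; adjusted p = 0.951, limma).

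Other lysosomal membrane proteins had a median of -0.07 over 17 genes, 11 lower and 6 higher, and the cystine transporter gene Ctns was at 301 and 238 in V118M and 303 and 352 in WT. Other lysosomal proteases had a median of -0.03 over 6 tested genes, 3 lower and 3 higher, and the carboxypeptidase gene Prcp was at 385 and 386 in V118M and 463 and 474 in WT. Of the other MiT factors, Mitf alone passed the filter, at 75 and 46 in V118M and 52 and 62 in WT.

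**Figure D4:**
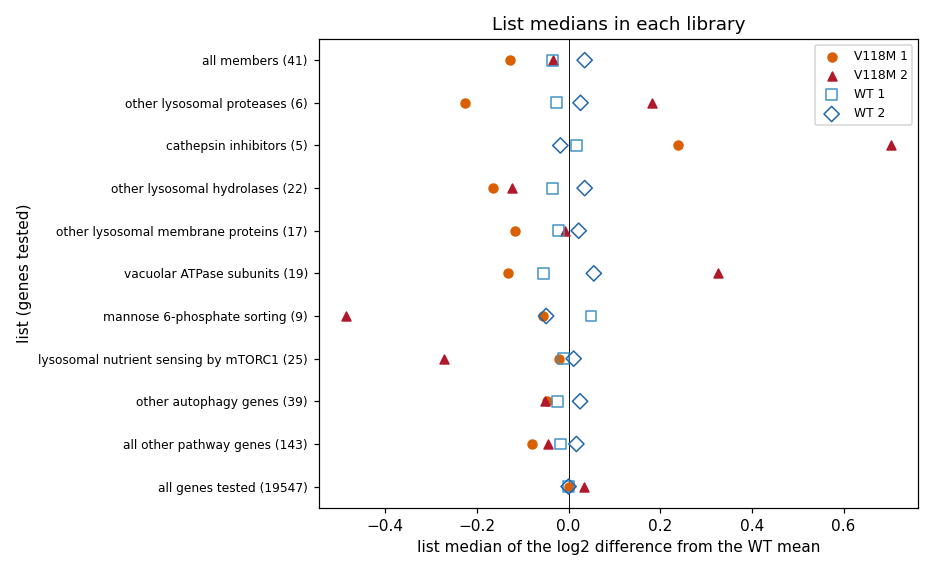
Rows are gene lists with the number of genes tested, and points are the list's median log2 difference from the WT mean in each library (x axis); filled symbols are V118M and open symbols WT. The medians of all members were -0.13 and -0.03 in V118M replicates 1 and 2. The vacuolar ATPase and mannose 6-phosphate sorting lists lay on opposite sides of 0 in V118M replicate 2. With the length and GC trend removed, which is not plotted, the medians of these lists in that library were 0.08 and -0.24.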

How the data were processed

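The authors deposited 1 table with a whole-number score per gene and library. Per the submitters' processing notes, RSEM, Bowtie2, DESeq2 and FastQC were used with mm10; their roles and the normalization are not given in the sources. The scores are not counts: after sorting, 76.7% of ranks had an identical value in all 4 columns, as quantile normalization between libraries gives. Shifts of most genes and depth therefore cannot be read from them. Use of strand in read assignment is not stated.

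Values were taken as log2(value + 1). A gene was kept if 2 or more libraries had a value of 1 or higher, which left 19547 genes and all 41 members. The model was limma 3.58.1 (R 4.3.3) on group alone, with the trend and robust options. It draws the variance of each gene towards that of genes of similar level. The model was also run on simulated data. The changes simulated were far larger than any member's fold change, so that run cannot show the power for changes of the size seen here. Tests were two-sided, with a threshold of 0.05 after Benjamini-Hochberg adjustment over all genes tested. Fold changes are V118M over WT. Positions and principal transcript lengths come from GENCODE M21 (GRCm38, also called mm10), where 22304 of the 22369 genes were found.

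The members and lists were chosen with earlier results of these data known. Given in full are the member of each role with the largest fold change and the best-known readouts. Ctsb and Asah1 were also given in full, although this rule does not select them. Of each other list, the gene with the smallest p was given. Alternatives were 2 other pseudocounts, 2 filters, array quality weights, a replicate block, removal of a length and GC trend, and each library left out.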

Additional observations from a re-analysis of the deposited data

How the results depend on the processing

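No member and no other pathway gene passed adjusted p of 0.05 under any of the 11 alternatives. The members' median log2 fold change stayed negative in all 11, between -0.13 without V118M replicate 2 and -0.03 without V118M replicate 1. Members with an unadjusted p under 0.05 numbered 4 with no filter (Lipa, Glb1, Asah1 and Ctsb, against 6.44% of all genes). Their fold changes were the same as in the main fit, and only the variance shared over genes differed. Such members numbered 1 with the replicate block (Npc1, against 6.16%) and 2 with the length and GC trend removed (5.64%). With each library left out they numbered 0 to 12, where 26.8% of all genes had such a p without V118M replicate 1, a fit in which the spread comes from the WT libraries alone. With each library left out, members whose groups did not overlap numbered 12 to 27 lower and 1 to 17 higher in V118M; such fits compare fewer libraries. With the trend removed 15 members were lower and 2 higher without overlap, against 18.4% and 17% of all genes. The median of the other pathway genes was -0.0821 with all libraries and ranged from -0.0787 to -0.0459 with each library left out. The labels give no sign that replicate numbers pair the libraries. Same-numbered libraries deviated together across 12661 genes (r = 0.303) but not across the 41 members (r = -0.02), and with the replicate block 3 genes of all passed, none of them a member. Precision is limited by 2 libraries a group.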
